A study of Homo sapiens with 44 samples.

Results

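The 10 members of the Notch pathway described here are among the 19923 protein-coding genes counted in the study: the receptors NOTCH1, NOTCH2 and NOTCH3, the ligands DLL1, DLL3, JAG1 and JAG2, the non-canonical ligand DLK1, and the transcription factors HES6 and HEY1. They were taken by their symbols from the rows of the count files, from a list of pathway genes drawn up with earlier results of these data known, and all 10 symbols were found. The study treated MYCN-amplified neuroblastoma cells with STM2457, a small molecule that inhibits METTL3, the enzyme that writes N6-methyladenosine (m6A) into messenger RNA. RNA bound by an m6A antibody (the immunoprecipitate, called RIP here) and the RNA before precipitation (the input) were sequenced, which gave 44 libraries in 16 groups. Kelly cells received 8 µM STM2457 or the solvent DMSO for 1 day or for 6 days, and NGP cells received the same for 6 days. Both are established lines whose genotype is given as wild type, and each is 1 line from 1 tumour. Each of these groups had 3 input and 3 RIP libraries. Nude mice carrying subcutaneous tumours of Kelly cells were injected into the peritoneum each day for 14 days with 50 mg/kg STM2457 or with vehicle, a control that the sample labels call DMSO, and gave 2 input and 2 RIP libraries per group. Fragments were counted on human genes only, and nude mice lack T cells but keep other stroma. Levels are scaled to each library's total on human genes. They therefore do not tell how many tumour cells a library held or how much RNA each cell gave. Whether mouse fragments were counted on human genes was not tested. Library totals lay between 2144870 and 36497858 counted fragments. The shallowest were the tumour inputs at 2144870 to 7271929, and the Kelly inputs at 6 days ranged from 5765458 to 31487824. Depth differed by treatment there. The DMSO inputs held 12086438 to 12780130 fragments and the STM2457 inputs 28674672, 31487824 and 5765458. The RIP libraries of that experiment held 10527000 to 11173326 with DMSO and 16319524 to 25547042 with STM2457. The labels do not say whether replicates were separate cultures, so p-values measure only the spread between these samples. At least 8 of 9 markers of adrenergic neuroblastoma reached 1 CPM (a gene's fragment count scaled to the library total, the unit of level used below) in the inputs of every group. Summed endothelial markers reached 16.8 to 28.2 CPM in the tumour inputs and at most 8.45 CPM in the cultured cells. In both tumour groups only CLDN5 and VWF of these 6 markers reached 1 CPM, and TEK was at 0. Summed fibroblast and pericyte markers were at 1380 to 1535 CPM in tumours and 735 to 4395 CPM in cultured cells. Summed macrophage and blood markers were at 0.932 to 7.52 CPM in tumours and at most 12.8 CPM in cultured cells. Summed Schwann cell markers were at 2.19 to 6.28 CPM in tumours and at most 2.59 CPM in cultured cells.

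Notch signalling works between neighbouring cells: a Delta or Jagged ligand on one cell binds a Notch receptor on the next, proteases release the receptor's intracellular part, and this joins RBPJ and Mastermind proteins in the nucleus to switch on HES and HEY repressors. In the developing nervous system these repressors hold back proneural factors, and DLL3 differs from the other ligands in acting mostly inside the cell that makes it, where it restrains Notch. DLK1 is an imprinted, Delta-like protein found in neuroendocrine tissue, and HES6 is an unusual family member that opposes HES1 and favours neuronal differentiation.

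The m6A antibody binds methylated adenosines, which lie mostly in the broad DRACH motif. GGACT, written in DNA letters, is only 1 form of that motif. Stretches around GGACT are printed for members whose RIP signal is compared below. They come from GENCODE 44 transcripts on GRCh38, and capitals mark 1 GGACT copy in each. GGACT was searched on the transcript strand only, and each stretch lies in coding sequence within 1 exon. NOTCH1 (reverse strand of chr9:136497123-136497151) and NOTCH3 (reverse strand of chr19:15161306-15161334) are shown at their last exons, where the copies resemble each other. The NOTCH3 copy in capitals starts at base 6396 of its transcript, and the stretch holds a further copy in lower case at base 6405. JAG2 (reverse strand of chr14:105142832-105142860) is also shown in its last exon. DLL3 (chr19:39507425-39507453, exon 7 of 9) and DLK1 (chr14:100732133-100732161, exon 4 of 5) lie on the forward strand.
NOTCH1: gctctcgcccgtGGACTccctggagtcac
NOTCH3: gctgtcgcccgtGGACTcgctggactccc
JAG2: ccgcggtgaggaGGACTccctggaggcgg
DLL3: cctccggctctgGGACTgctcgtggccgc
DLK1: gtactcgggaaaGGACTgccagaaaaagg

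GGACT occurs in 88.5% of 18999 canonical transcripts, at a median of 0.923 per kilobase, so its presence sets no member apart. HEY1 had the highest density of the members, 2.28 per kilobase with 5 copies, and 94.0% of transcripts were less dense. DLL3 followed at 2.00 per kilobase with 4 copies, all in coding sequence. NOTCH2 had 16 copies and NOTCH1 11. DLK1, JAG1 and JAG2 were below the median of all transcripts at 0.644, 0.673 and 0.520 per kilobase. HES6 held no GGACT in its canonical transcript, which says only that these letters are missing there. No site was measured at this resolution: the RIP values below are per gene.

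The receptors divided the lines. NOTCH1, on chromosome 9 from 136494433 to 136546048, was read at 24.3, 33.1 and 28.7 CPM in the 3 NGP DMSO inputs and at 10.9, 10.2 and 5.07 CPM in the 3 NGP STM2457 inputs. Every treated library was below every control library. In Kelly cells it did not exceed 0.567 CPM in any input, with 0 to 13 counts per library, and the 4 tumour inputs held 0, 0, 2 and 0 counts. Against a floor of 3 counts in each library, the NGP DMSO level was at least 51.7-fold higher than that of the control tumours. NOTCH3 (chromosome 19, 15159038 to 15200995) showed the reverse. It was read at 15.9, 23.2 and 17.4 CPM in Kelly DMSO inputs at 1 day and at 18, 14.8 and 18 CPM at 6 days. NGP cells gave 6 counts in 1 DMSO library and 0 in the other inputs. In treated cells the NOTCH3 level was at least 62.5-fold higher in Kelly than in NGP at 6 days. The tumour inputs gave 32.3 and 13.9 CPM with vehicle and 26.6 and 4.2 CPM with STM2457, a spread wider than the difference between the group means. NOTCH2 (chromosome 1, 119911553 to 120100779) was the lowest receptor of Kelly cells at 1 day after NOTCH1, at 1.39 to 2.49 CPM in DMSO. It fell to 0.0782 to 0.496 CPM in the DMSO inputs of 6 days and had 0 counts in all NGP and tumour inputs. Near-identical NOTCH2NL copies can split reads of NOTCH2, and their effect on its level was not tested.

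**Figure D1:**
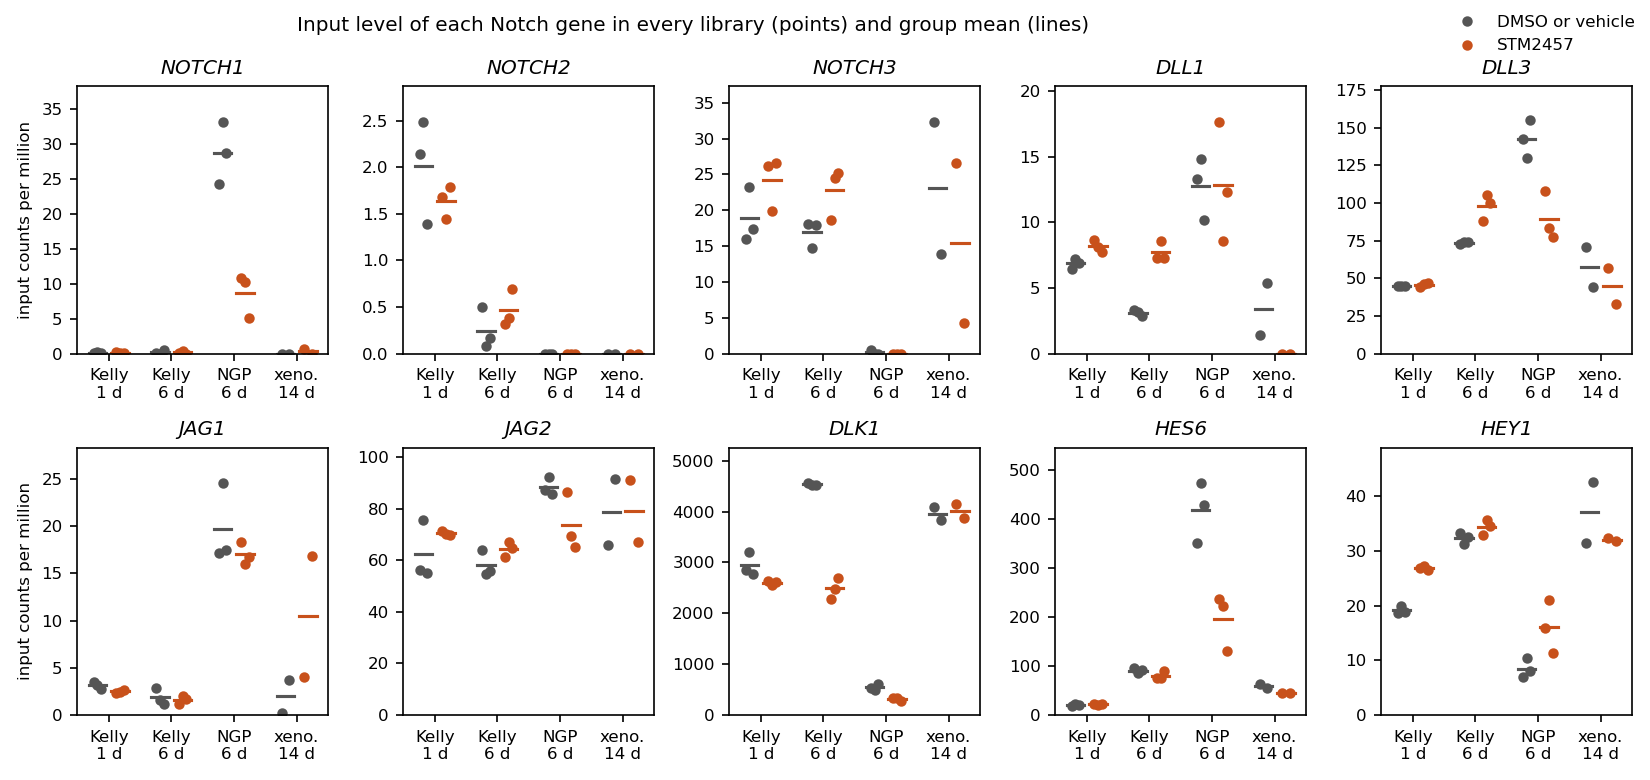
Input level of each of the 10 genes in CPM (vertical axis, linear from 0, own scale per gene) in every library of the 4 experiments; each point is 1 library, DMSO or vehicle and STM2457 in different colours, and short lines mark group means. NOTCH1 stands above 5 CPM only in NGP cells and NOTCH3 only in Kelly cells and their tumours, although 1 treated tumour is at 4.2 CPM, and DLK1 reaches 4568 CPM in Kelly DMSO cells at 6 days.

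Among the ligands, DLL3 and JAG2 were the main transcripts in both lines on the scale of CPM per kilobase of exon, which allows genes to be compared. In DMSO inputs DLL3 was read at 17.1 ± 0.0668 CPM per kilobase in Kelly cells at 1 day, 28.1 ± 0.195 at 6 days and 54.4 ± 4.85 in NGP cells (SD, n = 3 each), and at 21.9 ± 7.27 in control tumours (n = 2). JAG2 followed at 9.73 ± 1.79, 9.08 ± 0.779, 13.8 ± 0.539 and 12.3 ± 2.82 CPM per kilobase in the same order. DLL1 and JAG1 were lower, with DLL1 between 0.809 and 3.34 CPM per kilobase and JAG1 between 0.2 and 2.12 in the DMSO groups. DLL1 shares 370 exon bases with FAM120B, so reads there may have been left uncounted. The 3 receptors summed to 1.83 to 2.72 CPM per kilobase in DMSO groups and the 4 ligands to 29.0 to 73.7.

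DLK1 (chromosome 14, 100725705 to 100738224) was the most abundant member in Kelly cells and tumours. It was read at 4568, 4527 and 4520 CPM in Kelly DMSO inputs at 6 days, which is 0.454% ± 0.00259 of all counts (SD, n = 3) and the 19th highest gene of the table. At 1 day the DMSO inputs held 2859, 3208 and 2781 CPM and the control tumours 4085 and 3832 CPM. NGP cells held far less, 524, 486 and 615 CPM. HES6 (chromosome 2, 238238267 to 238240662) was the top member per kilobase in NGP cells, at 213 ± 31.4 against 103 ± 12.6 for DLK1 (CPM per kilobase, SD, n = 3). HES6 libraries did not overlap between NGP DMSO (351, 473 and 427 CPM), Kelly DMSO at 6 days (95.6, 85.4 and 90.9 CPM) and Kelly DMSO at 1 day (17.8, 22 and 20.6 CPM). HEY1 (chromosome 8, 79764010 to 79767857) was lower in NGP than in Kelly cells, with 31.2 to 33.3 CPM in Kelly DMSO at 6 days, 18.7 to 20 CPM at 1 day and 6.88 to 10.4 CPM in NGP DMSO. The control tumours held 31.4 and 42.6 CPM of HEY1, overlapping the Kelly cells of 6 days.

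The order of the 8 groups differed by gene. DLL3 was highest in NGP DMSO, then in treated Kelly cells at 6 days and treated NGP cells, which overlapped, and its lowest neighbours, treated tumours and Kelly cells of 1 day, also overlapped. JAG2 spanned only 58.1 to 88.5 CPM between its lowest and highest group mean, and 1 pair of neighbours in that order was separated without overlap, treated Kelly cells at 1 day and at 6 days. JAG1 was highest in NGP cells, where both treatments overlapped. DLL1 was highest in NGP cells too, with 8.56 to 17.7 CPM over their 6 inputs.

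Control groups were tested against each other with edgeR's quasi-likelihood test, adjusted by the method of Benjamini and Hochberg over all genes, where a call means an adjusted p below 0.05. All 10 members were called between NGP and Kelly cells at 6 days, where 59.7% of all tested genes were called. DLK1 was 9.46-fold lower in NGP (adjusted p = 1.03e-13) and HES6 4.08-fold higher (adjusted p = 8.29e-10). HEY1 was 4.42-fold lower, JAG1 9.34-fold, DLL1 3.64-fold and DLL3 1.72-fold higher, and JAG2 1.35-fold higher. The JAG2 call was lost without Kelly DMSO replicate 2 or 3 (adjusted p = 0.0597 and 0.0523), and that of NOTCH2, at 0 in NGP, without Kelly replicate 1 or NGP replicate 1 or 3 (adjusted p between 0.0727 and 0.123). In Kelly controls of 6 days against those of 1 day 5 members were called, beside 61.5% of all genes. HES6 was 5.94-fold higher at 6 days (adjusted p = 8.84e-11), HEY1 2.23-fold, DLL3 2.16-fold and DLK1 2.03-fold higher, and NOTCH2 was 6.10-fold lower (adjusted p = 0.0146). The NOTCH2 call was lost without DMSO replicate 2 of 1 day or replicate 2 or 3 of 6 days (adjusted p between 0.0568 and 0.0695). Between control tumours and Kelly cells at 6 days, JAG2 was 1.38-fold higher (adjusted p = 0.0278) and HES6 1.51-fold lower (adjusted p = 0.00417), beside 39.5% of all genes. Without tumour replicate 2 neither was called (adjusted p = 0.392 and 0.057), and JAG2 was also lost without Kelly replicate 2 or 3 (adjusted p = 0.0905 and 0.0807). Each experiment was counted in its own run, so experiment and line, time or host cannot be told apart in these level comparisons. Fitted folds rest on trimmed-mean scaling and exceed the plain CPM ratio by 0.40 (log2) for the typical gene of 10 CPM or more between the Kelly times, and fall 0.18 below it between the lines. For the input changes with STM2457 that follow, this shift lay between -0.11 and 0.13.

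DLK1 was called lower after STM2457 in each of the 3 culture experiments, and no other member was called in all 3. After 1 day in Kelly cells 2 of 9 tested members were called, HEY1 up and DLK1 down, beside 9.41% of all genes up and 8.06% down. HEY1 went from 18.7, 20 and 18.8 CPM to 26.9, 27.3 and 26.5 CPM. All treated libraries exceeded all controls, a 1.38-fold rise (log2 0.47 ± 0.09 SE, adjusted p = 0.00168). DLK1 went from 2859, 3208 and 2781 CPM to 2637, 2555 and 2616 CPM, a 1.15-fold fall (adjusted p = 0.00588) in which the groups also did not overlap. With all 22 inputs in 1 fit, which shares 1 spread over experiments, neither HEY1 nor DLK1 was called at 1 day (adjusted p = 0.672 and 0.699). DLL3 was not called at this time, with 44.6 to 45.0 CPM in controls and 44.2 to 47.1 CPM in treated cells (log2 0.01 ± 0.07 SE, adjusted p = 0.97). NOTCH3 was 0.34 ± 0.14 (SE) higher on the log2 scale without passing the test (adjusted p = 0.096), its groups overlapping. It was called without DMSO replicate 2 (log2 0.52, adjusted p = 0.0128), without STM2457 replicate 2 (adjusted p = 0.0397) and with no filter on low counts (adjusted p = 0.031). JAG2 was also called without DMSO replicate 2 (log2 0.32, adjusted p = 0.00359).

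After 6 days in Kelly cells 4 of 8 tested members were called, 2 up and 2 down, beside 11.9% of all genes up and 14.7% down. DLL1, a ligand read at 3.31, 3.13 and 2.83 CPM in controls, was at 7.25, 8.61 and 7.28 CPM after STM2457. The groups did not overlap, the rise was 2.34-fold (log2 1.22 ± 0.21 SE, adjusted p = 0.000344), and 99.5% of tested genes had a lower log2 change. DLL3 rose 1.23-fold, from 73.0, 73.9 and 73.9 CPM to 87.9, 106 and 99.9 CPM (log2 0.30 ± 0.07 SE, adjusted p = 0.00608). Its call was lost without STM2457 replicate 2 (adjusted p = 0.0532). DLK1 fell 1.97-fold to 2285, 2486 and 2696 CPM (log2 -0.98 ± 0.07 SE, adjusted p = 3.57e-08), which is 0.249% ± 0.0205 of counts and the 36th highest gene. HES6 fell 1.23-fold (log2 -0.30 ± 0.08 SE, adjusted p = 0.00822), but its treated libraries, at 75, 76.4 and 89.5 CPM, overlapped the controls at 85.4 to 95.6 CPM. That call was lost without DMSO replicate 1 (adjusted p = 0.0598) or STM2457 replicate 2 (adjusted p = 0.0546). With all 22 inputs in 1 fit neither DLL3 nor HES6 was called at 6 days (adjusted p = 0.340 and 0.458). HEY1, called at 1 day, stood at 31.2 to 33.3 CPM in controls and 32.9 to 35.6 CPM in treated cells here (adjusted p = 0.89). NOTCH3 was again higher without passing the test (log2 0.30 ± 0.14 SE, adjusted p = 0.12), and was called without STM2457 replicate 1 (adjusted p = 0.0151).

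In NGP cells 4 of 8 tested members were called and all were lower, beside 2.16% of all genes lower and 2.07% higher. NOTCH1, the only receptor above trace level there, fell 3.48-fold with the values given above (log2 -1.80 ± 0.31 SE, adjusted p = 0.000794), and 0.513% of tested genes had a more negative log2 change. HES6 fell 2.24-fold, from 351, 473 and 427 CPM to 237, 222 and 130 CPM (log2 -1.16 ± 0.19 SE, adjusted p = 0.000534). DLK1 fell 1.82-fold, from 524, 486 and 615 CPM to 329, 334 and 275 CPM (log2 -0.86 ± 0.15 SE, adjusted p = 0.00116). No treated library of these 3 genes reached its controls. DLL3 fell 1.67-fold, from 142, 130 and 155 CPM to 108, 83.4 and 77.2 CPM (log2 -0.74 ± 0.16 SE, adjusted p = 0.0102), again without overlap, and lost its call without DMSO replicate 3 (adjusted p = 0.0823). HEY1 was at 6.88, 10.4 and 7.96 CPM in controls and 15.9, 21.0 and 11.4 CPM after treatment, and did not pass the test although the groups do not overlap (log2 0.86 ± 0.34 SE, adjusted p = 0.17). With all 22 inputs in 1 fit HEY1 was called (adjusted p = 0.0126). The receptors summed to 2.72 ± 0.388 CPM per kilobase in controls and 0.819 ± 0.298 in treated NGP cells (SD, n = 3), and the 4 ligands to 73.7 ± 3.36 and 50.9 ± 9.13. Over the 8 members tested in NGP the median log2 change was -0.54, beside 0.01 over all genes. Over the 8 tested in Kelly cells at 6 days it was 0.0081, beside -0.0045 over all genes. These sets differ, as NOTCH1 was tested only in NGP cells and NOTCH3 only in Kelly cells, so the medians do not compare the same genes.

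**Figure D2:**
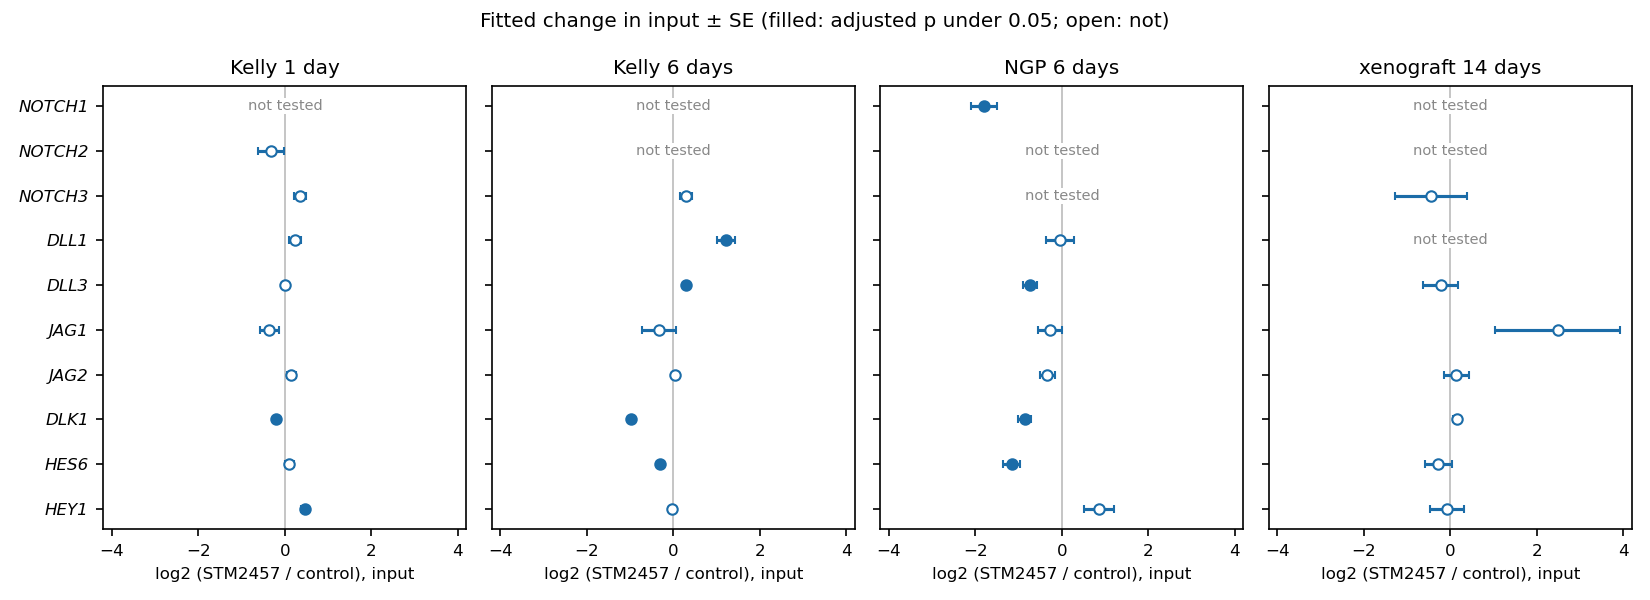
Log2 change of the input level with STM2457 (horizontal axis, treated over control, bars ± SE of the edgeR fit) for each tested gene in the 4 experiments; filled symbols have an adjusted p below 0.05. DLK1 lies at -0.98 and -0.86 in Kelly and NGP cells at 6 days, DLL3 at 0.30 and -0.74, and NOTCH1 at -1.80 in NGP cells; no tumour value is filled.

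In the tumours none of 7 tested members was called, and neither was any of the 11329 genes tested (0% called by edgeR's quasi-likelihood test, 968 genes at an unadjusted p below 0.05, and 120 called by DESeq2). DLK1 was read at 4085 and 3832 CPM with vehicle and at 4143 and 3883 CPM with STM2457, so the groups overlapped. HES6 was lower in both treated tumours, 45.8 and 44.3 CPM against 63.9 and 55.1 CPM, without passing the test (adjusted p = 0.88). DLL1 had 6 and 39 counts in the control tumours and 0 in both treated ones, at least 2.89-fold lower against a floor of 3 counts per library, and was not tested for low counts. JAG1 ranged from 0.233 to 3.71 CPM with vehicle and from 4.08 to 16.8 CPM with STM2457 (adjusted p = 0.68). Without STM2457 replicate 1, which leaves 1 treated input that is assumed to vary like the others, JAG1 was called higher (log2 3.13, adjusted p = 0.0108) and NOTCH3 lower (log2 -2.31, adjusted p = 0.0105).

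The difference between responses was tested directly. DLK1 fell further below its control at 6 days than at 1 day in Kelly cells, by a log2 difference of -0.75 ± 0.09 (SE, adjusted p = 3.25e-06). The rise of DLL1 over its control was larger by 1.02 ± 0.24 (adjusted p = 0.00725). DLL1 inputs averaged 6.87 CPM in controls and 8.18 CPM in treated cells at 1 day, and 3.09 and 7.72 CPM at 6 days. DLK1 averaged 2949 and 2603 CPM at 1 day, and 4538 and 2489 CPM at 6 days. For both genes the treated groups overlapped between the times, while the controls did not. HEY1's response was lower at 6 days by 0.47 on the log2 scale (log2 -0.47 ± 0.12 SE, adjusted p = 0.0163), a call lost without DMSO replicate 1 or 3 or STM2457 replicate 1 of 6 days (adjusted p between 0.0641 and 0.0695). With DLL3 (adjusted p = 0.0474) and HES6 (adjusted p = 0.0488) there were 5 calls of 9 members, beside 8.41% of all genes. DLL3 lost its call without any 1 library of 1 day, or DMSO replicate 1 or STM2457 replicate 2 of 6 days (adjusted p between 0.0523 and 0.125). HES6 lost it without any 1 library other than DMSO replicate 2 of 1 day and STM2457 replicate 3 of 6 days (adjusted p between 0.0572 and 0.185). Between the lines at 6 days DLL3 was called, rising in Kelly cells and falling in NGP cells (log2 difference -1.06 ± 0.18 SE, adjusted p = 0.00352), beside 1.36% of all genes. For DLK1 the difference between the lines was not called (log2 difference 0.09 ± 0.16 SE, adjusted p = 0.88). The DLK1 response in tumours differed from that of Kelly cells at 6 days by 1.11 ± 0.11 (log2, SE, adjusted p = 0.000475), beside 9.98% of all genes. DLL1 was called in the same comparison (adjusted p = 0.0123), with both treated tumours at 0 counts. Responses compared at 1 day and in tumours share the Kelly libraries of 6 days.

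RIP over input, the antibody-bound level divided by the input level of the same group, was low for DLK1 in each experiment. A gene is called enriched or depleted here when the adjusted p is below 0.05 and the ratio differs at least 2-fold from 1. Ratios are scaled to the typical gene, so they rank genes against each other and do not measure how much of a transcript is methylated. In DMSO libraries DLK1 stood at 0.130, 0.118 and 0.117 in Kelly cells at 1 day, 0.135, 0.121 and 0.128 at 6 days, and 0.134, 0.143 and 0.166 in NGP cells, and at 0.232 and 0.195 in control tumours. The fitted ratios were 7.90-fold, 8.03-fold, 7.22-fold and 4.63-fold below 1 (adjusted p = 1.40e-12, 2.96e-06, 7.29e-11 and 0.0201). Between 1.48% and 23.1% of tested genes ranked lower. The 13 mitochondrial mRNAs were also taken as reference in place of the typical gene. The DLK1 ratio then turned positive in Kelly cells at 6 days (log2 1.96) and in tumours (log2 0.13). The median of all genes moved to 4.77 and 2.02. A change of reference moves all genes of a library together, so it cannot test where DLK1 lies against the median. The mitochondrial reference moved the split of all genes called enriched and depleted from 3601 and 3982 to 6948 and 1116 in Kelly cells at 1 day. At 6 days the split went from 3439 and 3635 to 10965 and 45. In NGP cells it moved from 2739 and 2490 to 4905 and 975, and in tumours from 203 and 271 to 0 and 0. The tumour call was also lost without either control replicate (log2 -2.10 and -2.25), which leaves 1 control input and 1 control RIP library.

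The other members were spread out. In Kelly DMSO cells at 1 day 1 of 9 members was enriched and 2 were depleted, beside 26.3% and 29.1% of all genes. HEY1 was the enriched member, with ratios of 3.92, 4.01 and 3.12 (3.84-fold, adjusted p = 2.66e-07), above 85.3% of genes. NOTCH3 was depleted with ratios of 0.274, 0.196 and 0.148 (4.64-fold below 1, adjusted p = 0.0386), a call that was lost without any 1 of the DMSO replicates (adjusted p between 0.0932 and 0.180) and without STM2457 replicate 3 (adjusted p = 0.0652). At 6 days 0 of 8 members was enriched and 2 were depleted, beside 25.8% and 27.3% of genes, DLL3 joining DLK1. DLL3 ratios were 0.143, 0.209 and 0.275 there against 1.04, 0.995 and 0.758 at 1 day. RIP over input was not tested between the times, and experiment and time cannot be told apart for these ratios either. HEY1 remained above 1 at 1.56, 2.13 and 1.77 but under the 2-fold limit (log2 0.81 ± 0.31 SE, adjusted p = 0.042). JAG2 was above 1 in every Kelly control library, from 1.34 to 2.12, and under the limit at both times (adjusted p = 0.0020 and 0.013).

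In NGP DMSO cells 0 of 8 members was enriched and 4 were depleted, beside 20.9% and 19.0% of genes. NOTCH1 had ratios of 0.480, 0.280 and 0.308 (3.02-fold below 1, adjusted p = 0.000269) and HES6 of 0.469, 0.267 and 0.297 (3.13-fold below 1, adjusted p = 7.62e-06). DLL3 was at 0.157, 0.175 and 0.206 (5.93-fold below 1, adjusted p = 1.29e-09). HEY1 at 1.77 to 2.51 and JAG1 at 1.20 to 3.17 lay above 1 and under the limit (adjusted p = 0.0066 and 0.014). With the mitochondrial reference the NGP calls of NOTCH1 and HES6 were lost, with the median of all genes at 0.80 (log2). Of the 3 members called different from Kelly cells at 6 days, HES6 had the largest difference. Its Kelly ratios at 6 days were 0.975, 1.05 and 1.57, and the log2 difference was -2.04 ± 0.32 (SE, adjusted p = 0.000142). Kelly controls of 1 day, which were not part of that fit, had HES6 ratios of 0.852, 0.311 and 0.496, overlapping those of NGP. NOTCH3, with 6 counts in the NGP DMSO inputs, was not called in that fit and was with DESeq2 (adjusted p = 0.0424). DLL1 and JAG2 were also lower in NGP on this measure (adjusted p = 0.0187 and 0.0235), 3 calls of 9 members beside 46.1% of all genes. Over all genes 3276 were higher and 3032 lower in NGP on this measure, and 102 and 10442 with the mitochondrial reference, under which 9 members were called. DLL1 lost this call without Kelly replicate 3 or any 1 NGP replicate (adjusted p between 0.0549 and 0.0981), and JAG2 without any 1 Kelly replicate or NGP replicate 2 or 3 (adjusted p between 0.0635 and 0.163). In control tumours 0 of 8 members was enriched and DLK1 alone was depleted, beside 1.61% and 2.15% of genes. HEY1 ratios there were 2.92 and 4.17 (adjusted p = 0.11).

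**Figure D3:**
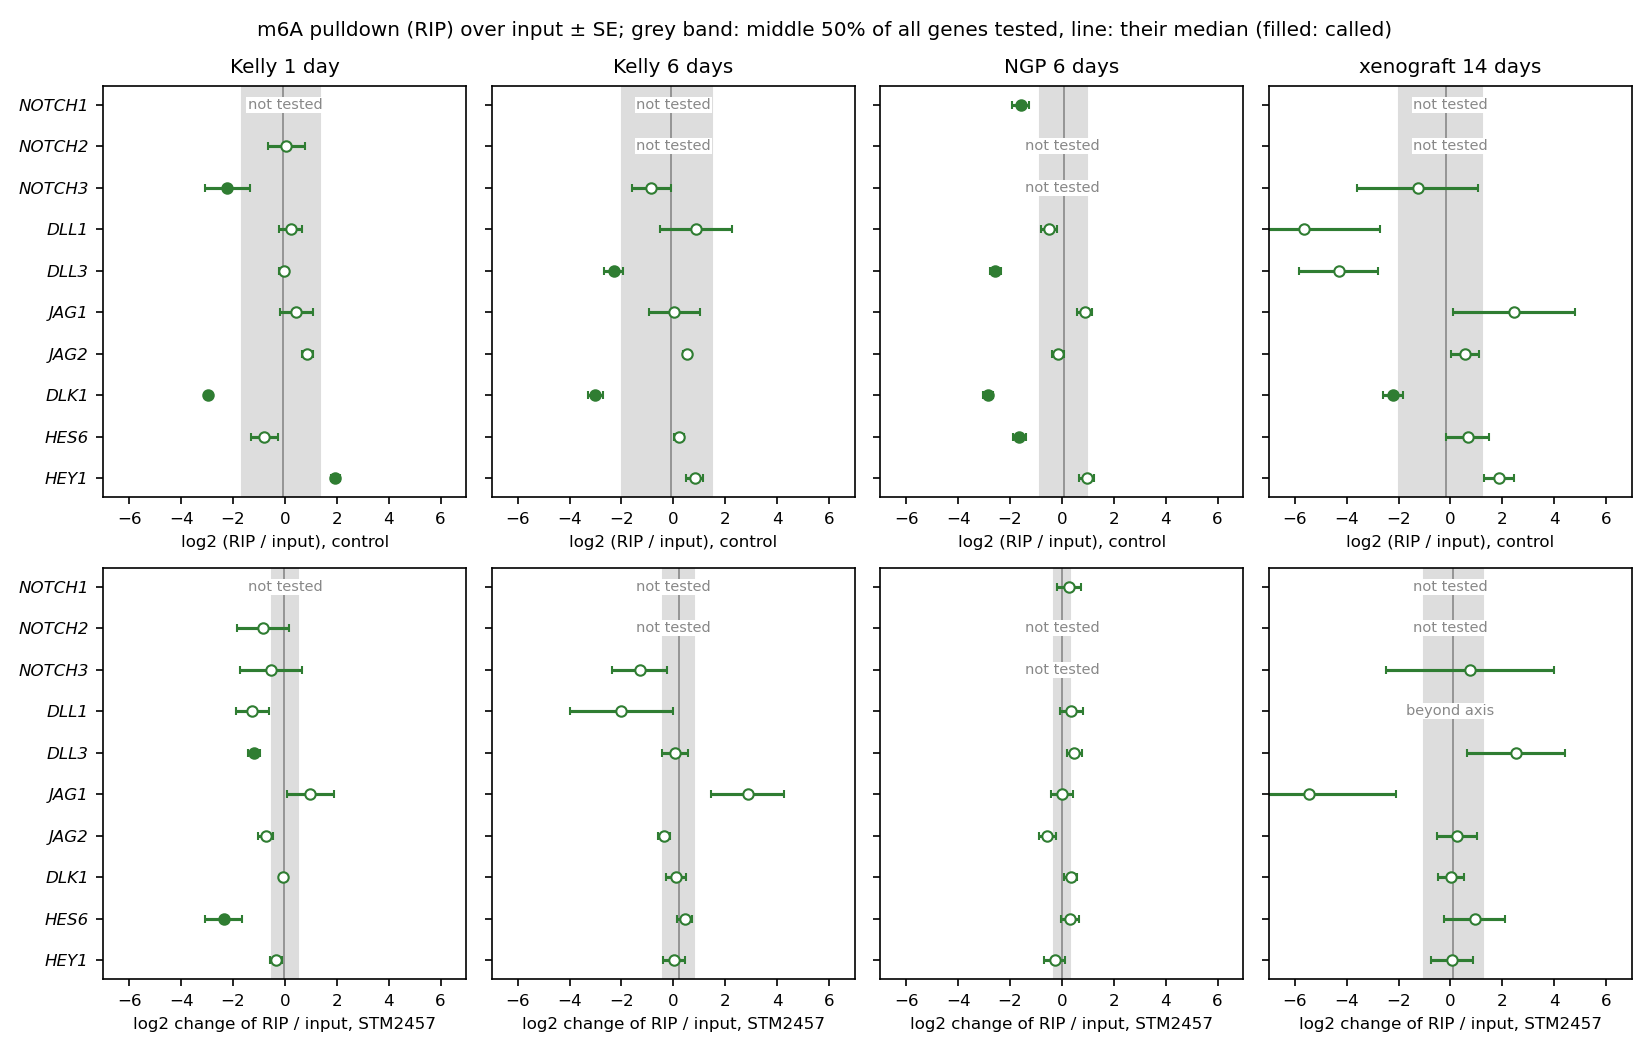
RIP over input as fitted log2 ratios ± SE for each gene in the 4 experiments, in DMSO or vehicle controls (top row) and as the change of that ratio with STM2457 (bottom row); the grey band holds the middle 50% of all tested genes, the line is their median, and filled symbols are called. DLK1 lies near -3 in the 3 culture experiments and HEY1 above 0 in each; with a mitochondrial reference the DLK1 value turns positive in Kelly cells at 6 days and in tumours, where the median of all genes lies higher still.

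STM2457 changed the RIP over input ratio of 2 of 9 members in Kelly cells at 1 day, both downward, beside 7.62% of all genes down and 9.53% up. The 1303 genes up and 1042 down became 1538 and 793 with DESeq2's median-ratio size factors and 13 and 8323 with the mitochondrial reference, under which 6 members fell. DLL3 went from 1.04, 0.995 and 0.758 to 0.456, 0.320 and 0.366, a 2.29-fold fall without overlap (log2 -1.20 ± 0.24 SE, adjusted p = 0.00403), while its input was not called at that time. HES6 went from 0.852, 0.311 and 0.496 to 0.205, 0.0487 and 0.0517, a 5.15-fold fall (log2 -2.37 ± 0.73 SE, adjusted p = 0.0429) that lost its call in 7 of 11 alternative settings. Among these were any 1 DMSO replicate, or STM2457 replicate 2 or 3, left out (adjusted p between 0.0723 and 0.224). JAG2 went from 2.12, 1.56 and 1.55 to 1.19, 1.07 and 0.687 at 1 day and from 1.60, 1.53 and 1.34 to 0.955, 0.800 and 0.947 at 6 days. The JAG2 groups did not overlap at either time, but neither change passed the test (adjusted p = 0.10 and 0.47). DLK1 stayed low after treatment, at 0.106, 0.104 and 0.112 at 1 day (adjusted p = 0.60 for the change). At 6 days in Kelly cells none of 8 members was called, beside 2.06% of all genes. The 168 genes up and 107 down there became 9 and 3929 with the mitochondrial reference, under which 5 members were called. DLL1 had RIP levels of 0, 8.26 and 0.0613 CPM in the 3 treated libraries against 5.26, 6.26 and 5.98 CPM in controls (adjusted p = 0.70, and 0.0312 without STM2457 replicate 2). In NGP cells and tumours no member and no gene was called (0% by edgeR's quasi-likelihood test, with 764 and 809 genes at an unadjusted p below 0.05 and 2 and 159 called by DESeq2).

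Around the members, 65 other genes of the pathway were counted by list. These lists cover other receptors and ligands, receptor processing, receptor sugars, traffic and turnover, the nuclear complex, corepressors, other targets and proneural factors. After 1 day in Kelly cells 6 of 57 tested were higher and 2 lower, beside 9.41% and 8.06% of all genes. NEURL1, a ubiquitin ligase for ligands, rose 1.27-fold (adjusted p = 0.00363), CIR1, a corepressor of RBPJ, 1.24-fold, and NRARP, a target that turns receptors over, 1.24-fold. PSENEN, a subunit of gamma-secretase, and POFUT1, which adds fucose to receptors, had folds of 0.744 and 0.876. NEURL1 kept its call with any 1 library left out, but lost it with all 22 inputs in 1 fit (adjusted p = 0.897), as did the other 4. The other 4 each lost it without STM2457 replicate 1 or 2, CIR1 also without DMSO replicate 2, NRARP without DMSO replicate 1 or 3, and PSENEN and POFUT1 without DMSO replicate 1 or STM2457 replicate 3 (adjusted p between 0.0540 and 0.168).

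After 6 days in Kelly cells 14 of 57 were higher and 3 lower, beside 11.9% and 14.7% of all genes. TLE2 and TLE3, Groucho-family corepressors, rose 2.21-fold and 1.91-fold (adjusted p = 0.00166 and 2.56e-07). HEYL, a repressor related to HEY1, went from 13.1 ± 0.886 to 25.4 ± 2.70 CPM (SD, n = 3), a 1.77-fold rise (adjusted p = 0.000105). Of the corepressors 6 of 13 were higher and 0 lower, and of the nuclear complex 4 of 7 were higher and 0 lower, RBPJ itself not passing the test (log2 0.33, adjusted p = 0.0592, and 0.023 without STM2457 replicate 3). TLE3 and HEYL responded more at 6 days than at 1 day (log2 differences of 0.65 and 0.55, adjusted p = 6.38e-05 and 0.0141). HES7 fell to a fold of 0.467, EGFL7, a secreted protein that binds Notch, to 0.485, and PSENEN to 0.535. With all 22 inputs in 1 fit TLE2, HEYL, HES7 and PSENEN lost their calls (adjusted p = 0.221, 0.0744, 0.393 and 0.119). TLE3 and EGFL7 kept theirs in that fit.

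In NGP cells 0 of 59 were higher and 4 lower, beside 2.07% and 2.16% of all genes. NEUROD1, a proneural factor, fell from 283 ± 27.4 to 124 ± 11.3 CPM (SD, n = 3, adjusted p = 1.37e-05), 1 of 2 called among the 3 tested proneural factors. LFNG, which elongates receptor sugars, and CNTN1, a neural cell-surface protein reported to bind Notch, had folds of 0.540 and 0.553. LFNG lost its call without any 1 of the 6 inputs, and CNTN1 without DMSO replicate 1 or 3 or STM2457 replicate 1 (adjusted p between 0.0506 and 0.152). HES1, the main HES target elsewhere, had 1.40 ± 0.642 CPM in controls and 6.46 ± 2.78 CPM in treated NGP cells without passing the test (adjusted p = 0.0668), though it was called in 5 of 11 alternatives (adjusted p between 0.0172 and 0.0491: DESeq2, no filter, the replicate block, all 22 inputs in 1 fit and without STM2457 replicate 2), and stayed below 2 CPM on average in Kelly cells. In the tumours 0 of 53 were called.

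**Figure D4:**
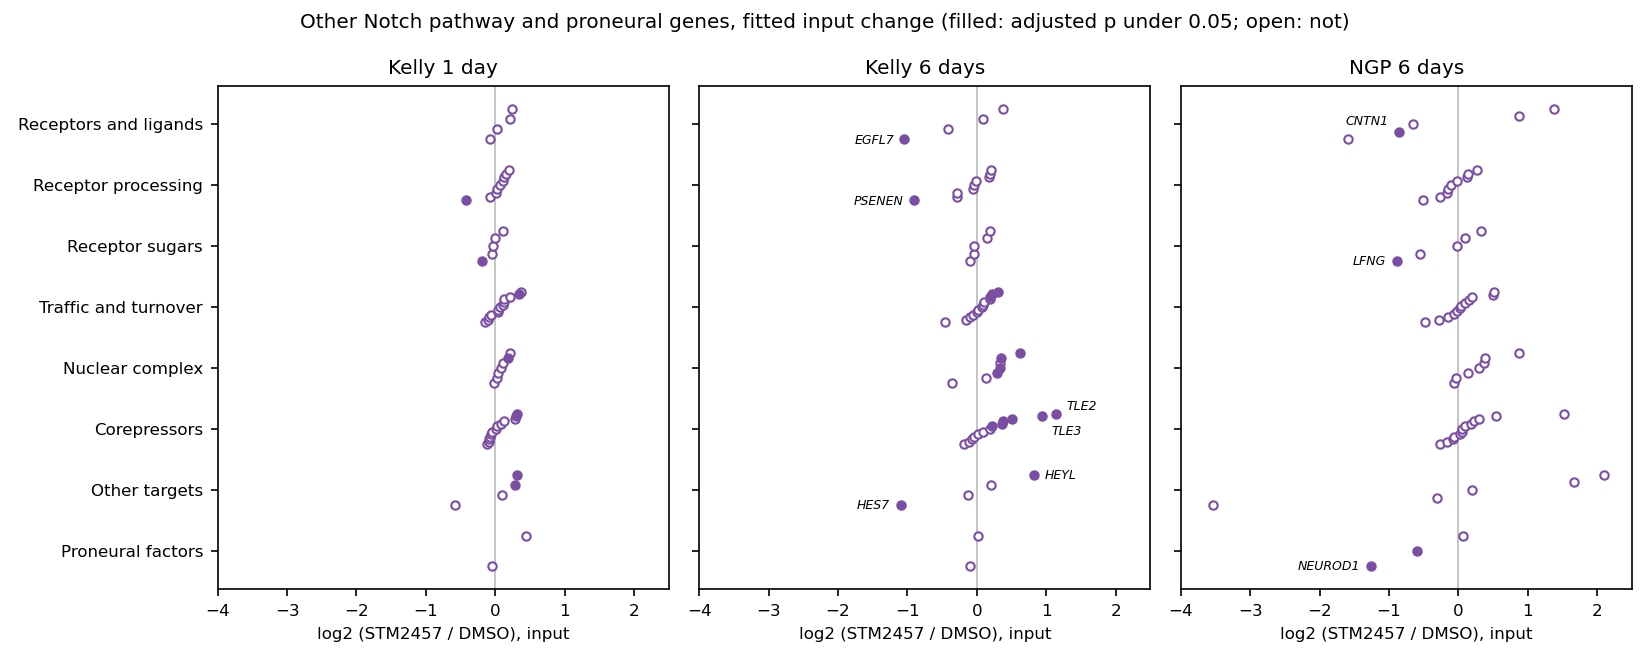
Log2 input change with STM2457 of the other pathway genes by list (rows) in Kelly cells at 1 day, Kelly cells at 6 days and NGP cells; each point is 1 gene and filled points have an adjusted p below 0.05. In Kelly cells at 6 days 14 points are filled above 0, led by TLE2, and 3 below; in NGP cells 4 are filled, all below 0.

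On RIP over input in DMSO cells the nuclear complex was enriched for 4 of 7 genes in Kelly cells at 1 day, 5 of 7 at 6 days and 4 of 7 in NGP cells, beside 26.3%, 25.8% and 20.9% of all genes, with 1 of 7 depleted at 6 days. Receptor processing had 5 of 9 genes depleted and 2 enriched in Kelly cells at 1 day. It had 3 depleted and 2 enriched at 6 days, and 1 depleted and 3 enriched in NGP cells. Receptor sugars had 2, 1 and 3 of 5 genes depleted in the same order, and 0 enriched. Over all genes 29.1%, 27.3% and 19.0% were depleted. HEYL was enriched in Kelly cells at both times (7.88-fold and 5.63-fold) and was not called in NGP cells (1.68-fold, adjusted p = 0.196).

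Patterns over the 22 inputs were compared by Pearson correlation of log2(CPM + 1) among 10847 genes, as a description, since the inputs share 4 experiments that differ in line, time and host. NOTCH1 was most like CACNA1H (r = 0.988) and PLAC9, DLK1 most like MYO7A (r = 0.980) and MAPK11, and HES6 most like CMSS1 (r = 0.982) and HPCA. NOTCH3 was most like ENOSF1 (r = 0.983) and EPHX2, HEY1 like TFAP2B (r = 0.947) and GLYCTK, and DLL3 like AATK (r = 0.95) and CD163L1. DLL1 was most like HDAC9 (r = 0.939) and GSE1, and JAG1 like ID1 (r = 0.925) and PIF1. JAG2 had the weakest match, NEK8 (r = 0.821) and JPH3, and NOTCH2 was too low to compare.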

How the data were processed

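RNA bound by an m6A antibody and its input RNA were sequenced from Kelly and NGP cells and Kelly xenografts. The deposited files hold raw counts of fragments per gene, made by the authors with featureCounts 1.5.3 on GRCh38, with GENCODE 33 protein-coding exons summed by gene name, paired fragments and no strand or multi-overlap option, per the file headers. The submitters' processing notes also name FastQC 0.11.5, Trimmomatic 0.36, HISAT2 2.1.0 and deepTools 2.0. Strand was not used, so reads of overlapping antisense genes cannot be told apart. The labels mention m6A spike-ins, which were not analysed here.

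Counts were tested with edgeR 4.0.16 (R 4.3.3, limma 3.58.1): TMM scaling, filterByExpr with a minimum count of 10 and total of 15, a quasi-likelihood fit of each experiment alone, and Benjamini-Hochberg adjustment over all genes tested at 0.05. Enrichment is the RIP against input coefficient, its change the interaction with treatment, and both RIP and input libraries entered those fits. Response differences and control levels were fitted over the experiments compared. The adjusted p-values printed are from these fits unless DESeq2 1.42.0 is named. Levels are CPM of the raw totals, per kilobase of exon where genes are compared, and RIP ratios per library divide a RIP CPM by the mean input CPM of its group. The scripts were tested on simulated data. The members and lists were chosen with earlier results of these data known. All 10 members are named, with RBPJ and HES1, and up to 3 called pathway genes with the largest change in each direction per input comparison. The result for 1 listed gene is not reported here.

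Total counts of 2144870 to 36497858 per library set the precision of each gene's level. No 2 replicates agreed within sampling noise: over 40 replicate pairs, chi-square divided by its degrees of freedom was at least 2.73. Replicate numbers were not taken to pair samples: deviations of same-numbered inputs correlated between -0.370 and -0.0456 in Kelly cells at 1 day, -0.191 and 0.0617 at 6 days, and -0.0165 and 0.179 in NGP cells. Between inputs and RIP libraries of 1 group the range was -0.119 to 0.253, reaching 0.0227 to 0.253 in treated Kelly cells at 6 days. As not every pair exceeded 0.1 in any experiment, the main fits have no block. Alternatives were DESeq2's size factors, DESeq2, no filter on low counts, a replicate block, all 22 inputs in 1 fit, and 13 mitochondrial mRNAs as reference. Each replicate was also left out in turn. In fits with RIP libraries this took out the input and the RIP library of 1 group that share a replicate number. Motifs and stretches were read from GENCODE 44 canonical transcripts, and 187 of 187 exons of the members had both ends equal in the deposited annotation.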

Additional observations from a re-analysis of the deposited data

Results flagged for a closer look

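In each case below, 2 groups differed in their response or enrichment by a test of the difference itself, an interaction term of edgeR's quasi-likelihood fit with adjustment over all genes. No explanation was tested.

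Between 6 days and 1 day in Kelly cells the response of the ligand DLL1 differed (adjusted p = 0.00725) and so did that of DLK1 (adjusted p = 3.25e-06), in all 16 alternatives. Those of DLL3 (adjusted p = 0.0474), HES6 (adjusted p = 0.0488) and HEY1 (adjusted p = 0.0163) held in 7, 3 and 11 of 16.

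Between NGP and Kelly cells at 6 days the DLL3 response differed (adjusted p = 0.00352) and held in 16 of 16. DLL3 rose in Kelly cells and fell in NGP cells.

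Between tumours and Kelly cells at 6 days DLK1 differed (adjusted p = 0.000475) and so did DLL1 (adjusted p = 0.0123), which had 0 counts in both treated tumours, so that its fitted size is no bound.

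RIP over input in controls was lower in NGP than in Kelly cells at 6 days for HES6 (adjusted p = 0.000142), DLL1 (adjusted p = 0.0187) and JAG2 (adjusted p = 0.0235). HES6 held in 11 of 11 alternatives, DLL1 and JAG2 in 6 of 11 each. The HES6 ratios of Kelly controls at 1 day, 0.311 to 0.852, overlapped those of NGP controls.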

How the results depend on the processing

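Over 185 results and 2219 alternative values, 1910 kept their direction and side of the threshold, 8 reversed, 111 lost and 66 gained a call, and 124 changed sign without a call on either side. DLL1 and DLK1 in Kelly cells at 6 days, NOTCH1, DLK1 and HES6 in NGP cells, and the fall of DLL3 RIP over input at 1 day kept their calls in 11 of 11 alternatives each.

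With all 22 inputs in 1 fit, which shares 1 spread over experiments, members called on input became 0 in Kelly cells at 1 day, 2 at 6 days, 5 in NGP cells and 2 in tumours, and genes called went from 2315 to 26, 3396 to 791, 520 to 1266 and 0 to 2551 (1 day, 6 days, NGP, tumours). Without single replicates these member counts were 2 to 4, 2 to 5, 3 to 4 in NGP and 0 to 2 in tumours, where without STM2457 replicate 1 NOTCH3 and JAG1 were called (adjusted p = 0.0105 and 0.0108). In tumours no filter gave 100 called genes, and the replicate block 65.

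With the mitochondrial reference, enriched members became 5 at 1 day, 8 at 6 days and 2 in NGP, depleted ones 1, 0 and 2, and 0 in tumours, and changed ones 6 at 1 day and 5 at 6 days. Members differing between NGP and Kelly controls became 9. The log2 ratio of DLL3 turned to 1.60 at 1 day and 2.85 at 6 days, NOTCH3 to 4.51 and DLK1 to 1.96 at 6 days, and DLK1 to 0.127 in tumours. The change turned to -2.64 for DLL3 and -2.51 for HEY1 at 6 days, and the JAG1 difference between lines to -2.66. The median of all genes moved with them, to 1.57, 4.77 and 2.02 for the ratios and -2.20 for the change at 6 days.

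Without single replicates enriched members were 1 to 2 at 1 day and 0 to 2 in NGP, depleted 1 to 2 at 1 day and 0 to 1 in tumours, changed 1 to 2 at 1 day and 0 to 1 at 6 days, and differing in enrichment between lines 1 to 2. Different responses were 2 to 5 between the Kelly times and 2 to 5 for tumours against Kelly cells, and different control levels 4 to 7, 9 to 10 and 1 to 3 (Kelly times, lines, tumours). No share of all genes stands beside these ranges, and the shares given above belong to the main fits. The ranges therefore show only how the member counts moved, and do not set the members apart from other genes.

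DESeq2 gave 1 enriched and 2 depleted members in tumours, beside 711 and 1488 of 12626 genes. It gave 2 different responses between lines, beside 430 of 13448 genes. The member counts without single replicates have no such count over all genes beside them. Without a filter, 1 member changed enrichment at 1 day, beside 2210 of 16924 genes. In response 3 and 2 members then differed between times and lines, beside 1610 of 17386 and 272 of 17010 genes.

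The replicate numbers share only a number: each input correlated best with its own number for 0 of 3 in Kelly cells at 1 day, and 1 of 3 at 6 days and in NGP. Inputs and RIP libraries of Kelly cells at 6 days did so for 2 of 3 in each treatment. With the replicate block 1 member changed enrichment at 1 day, beside 1585 of 13669 genes. In that setting 2 members differed in response between the Kelly times, beside 828 of 13773 genes. In level 1 member differed between tumours and Kelly cells, beside 4727 of 13838 genes. Called genes went from 520 to 870 in NGP inputs and from 275 to 0 for the change of RIP over input at 6 days (907 with DESeq2). The cause of these differences was not tested.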
